A study of Mus musculus with 9 samples.

Results

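Egr1, Egr2, Egr3, Fos, Fosb, Fosl1, Jun, Junb, Ier2 and Arc are immediate early genes, and they were followed in ATDC5 cells, a mouse chondrogenic line used as a culture model of cartilage formation. The 10 genes were taken by name, 9 of them for transcription factors or transcriptional regulators and 1, Arc, for a cytoskeleton-associated protein. They are 10 of the 26202 genes in the deposited table, and all 10 are among the 12868 genes that had a mean of at least 1 CPM over all libraries and were tested. Messenger RNA was sequenced from 9 libraries, 3 labelled acetate, 3 labelled ethanol and 3 labelled control. The same medium served all 3 groups, DMEM/F-12 with serum, to which ascorbate, beta-glycerophosphate and insulin-transferrin-selenium were added when the treatments were given. The doses and times of acetate and of ethanol, and what the controls received, are not given in the sources used here. The cells are 1 line with no genetic change named in the labels. Nothing in the labels says that the libraries of a group came from separate cultures, and the p-values therefore rest on a spread between libraries that may be technical.

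Immediate early genes are transcribed within minutes of a signal from growth factors, serum, calcium or stress, with no need for new protein. In the best known route, ERK kinases phosphorylate ternary complex factors that sit with serum response factor on CArG boxes in the promoters, while CREB acts through its own short motif. The messages are short-lived, so their level follows recent signalling. FOS and JUN proteins pair to form AP-1, which acts in chondrocyte and bone cell differentiation, EGR proteins are zinc finger factors held in check by the NAB corepressors, and Arc is best known from neurons, where it acts in receptor endocytosis at synapses.

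Proximal promoters in the RefSeq table (build GRCm38.p6, 250 bases before to 50 after a transcription start) matched 5 of the 10 genes, Egr2, Fos, Fosb, Jun and Junb. They are shown because the matches in them are to motifs of the factors named above and of the AP-1 and EGR proteins themselves. Each is written 5′ to 3′ on the gene's strand, and capitals mark the matches found. Of the 5 windows listed for Egr2, the first of 3 overlapping ones that hold the same matches is shown. The Egr2 window that begins at 67537316 held a different CArG box, and the one that begins at 67535249 held no match.
Egr2, chr10:67537619-67537918, + strand: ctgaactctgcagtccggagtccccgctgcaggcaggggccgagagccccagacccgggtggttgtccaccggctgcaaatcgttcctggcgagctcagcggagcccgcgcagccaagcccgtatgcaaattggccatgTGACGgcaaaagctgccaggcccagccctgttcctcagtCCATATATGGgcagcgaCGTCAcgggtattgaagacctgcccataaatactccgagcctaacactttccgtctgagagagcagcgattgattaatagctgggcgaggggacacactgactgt
Fos, chr12:85473640-85473939, + strand: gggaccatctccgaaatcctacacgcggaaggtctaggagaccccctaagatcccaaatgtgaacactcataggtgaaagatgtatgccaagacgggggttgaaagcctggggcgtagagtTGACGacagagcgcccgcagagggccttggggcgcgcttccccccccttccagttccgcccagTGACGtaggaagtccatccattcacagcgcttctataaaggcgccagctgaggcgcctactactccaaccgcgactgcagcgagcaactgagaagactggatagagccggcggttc
Fosb, chr7:19309996-19310295, - strand: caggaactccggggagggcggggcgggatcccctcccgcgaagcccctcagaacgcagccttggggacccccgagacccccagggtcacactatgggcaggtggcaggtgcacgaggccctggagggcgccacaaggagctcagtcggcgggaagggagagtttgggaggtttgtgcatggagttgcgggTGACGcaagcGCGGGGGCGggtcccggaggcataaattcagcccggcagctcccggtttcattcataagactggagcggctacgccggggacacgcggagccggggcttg
Jun, chr4:95052173-95052472, - strand: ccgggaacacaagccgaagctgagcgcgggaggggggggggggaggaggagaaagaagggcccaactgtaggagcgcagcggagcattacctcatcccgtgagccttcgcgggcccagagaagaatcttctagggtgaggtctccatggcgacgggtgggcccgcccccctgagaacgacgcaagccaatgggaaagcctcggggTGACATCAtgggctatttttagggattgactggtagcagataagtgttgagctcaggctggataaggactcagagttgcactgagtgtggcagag
Junb, chr8:84978699-84978998, - strand: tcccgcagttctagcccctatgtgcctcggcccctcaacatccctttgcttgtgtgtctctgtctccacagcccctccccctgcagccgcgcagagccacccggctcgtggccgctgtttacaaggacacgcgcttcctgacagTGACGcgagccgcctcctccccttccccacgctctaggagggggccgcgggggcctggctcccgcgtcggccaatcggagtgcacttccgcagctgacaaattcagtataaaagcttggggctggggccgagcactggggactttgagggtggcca
The search covered both strands and 6 kinds of match, and the share is over 32851 mouse promoters of the same length. It is a share per window, so it is not a like comparison for Egr2, whose window was picked from several. The Egr2 window held a CArG box, CCATATATGG, from base -72 to base -63 counted from the start, and a CArG box was in 1.63% of promoters. TGACG, the shorter form of the CREB motif, was in 20.8% of promoters and in the windows of Egr2, Fos, Fosb and Junb, with 1 copy on each strand in Egr2 and 2 copies in Fos. The full CREB motif TGACGTCA, in 1.79% of promoters, was in none of the 5 windows. The 8-base AP-1 motif TGACNTCA, which includes that full motif, was in 8.83% of promoters and among the 5 windows in that of Jun, as TGACATCA from -45 to -38. The 7-base AP-1 motif TGANTCA, in 7.81% of promoters, was in none of the 5 windows. The EGR motif GCGNGGGCG was in 5.55% of promoters and among the 5 windows in that of Fosb, as GCGGGGGCG from -50 to -42. A match is a run of letters, and no binding was measured.

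Levels are given as CPM, reads per gene relative to library size after the authors' TMM scaling, from libraries of 28.7 to 41.9 M recovered reads, in which a single read was worth 0.0231 to 0.0348 CPM. The 10 genes had between 39 and 8787 recovered reads in any library. The labelled cell type was checked on 8 chondrogenic markers, all of which were above 1 CPM on average. Their summed level was 5045 to 5798 CPM in acetate libraries, 4474 to 5616 CPM in ethanol libraries and 9283 to 12296 CPM in control libraries, and 5 of the 8 fell in each treatment against control with limma, or 7 without acetate replicate 2, a library described next. Of the 12868 tested genes, 64 were called lower with acetate and 315 with ethanol. Without that library the counts were 197 with acetate and 1457 with ethanol. Col2a1 made up most of the summed level, with a mean of 5814 CPM over the 9 libraries, and Acan had 766 CPM. The mean of Sox5 was not lower with ethanol, at 41.5 CPM beside 40.7 CPM in control libraries. In bulk RNA, fewer cells of a type and less RNA per cell cannot be told apart. Of the markers of other cell types, 4 of 8 neuronal, 1 of 5 macrophage, 1 of 4 endothelial and 0 of 4 skeletal muscle markers reached a mean of 1 CPM. The neuronal markers summed to 97.7 to 124 CPM in acetate, 114 to 126 CPM in ethanol and 101 to 115 CPM in control libraries, with Rbfox3, Snap25, Syt1 and Gap43 under 1 CPM. Most of that sum was Map2, with a mean of 61.9 CPM over the 9 libraries, and Tubb3, with 33.1 CPM, both of which encode cytoskeletal proteins. Camk2a was the 1 neuronal marker called against control, lower with ethanol (-0.76 ± 0.17, adjusted p 0.045). In the fit without acetate replicate 2, Syn1 and the endothelial marker Pecam1 were also called higher and the macrophage marker Lyz2 lower with ethanol, and Pecam1 lower in acetate than in ethanol. The macrophage markers summed to 1.90 to 2.33 CPM in acetate, 1.25 to 1.81 CPM in ethanol and 1.56 to 2.66 CPM in control libraries, and the endothelial markers to 1.17 to 1.92 CPM in acetate, 2.18 to 2.38 CPM in ethanol and 1.25 to 1.46 CPM in control libraries. Of the muscle markers, Myod1 and Myog were at 0 in every library, and the sums were 0.382 to 0.742 CPM in acetate, 0.290 to 0.417 CPM in ethanol and 0.280 to 0.470 CPM in control libraries. The part of any of these in the results was not tested.

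Acetate replicate 2 stood apart from the other acetate libraries along the GC content of transcripts. Its difference from them had a Pearson r of 0.83 with GC content across 12745 genes, as a description, with a median of 0.45 log2 for 3088 genes of at least 55% GC and of -1.65 for 633 genes under 40% GC. Transcripts of the 10 immediate early genes have 51.3% to 62.6% GC. In the same library Junb was 0.79, Ier2 0.57, Jun 0.55 and Arc 0.39 log2 units above the mean of the other acetate libraries, while Egr3 was lower, with a difference of -0.45. Results on the 10 genes, and counts of the related lists, are therefore given with and without this library where it changes them.

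**Figure D1:**
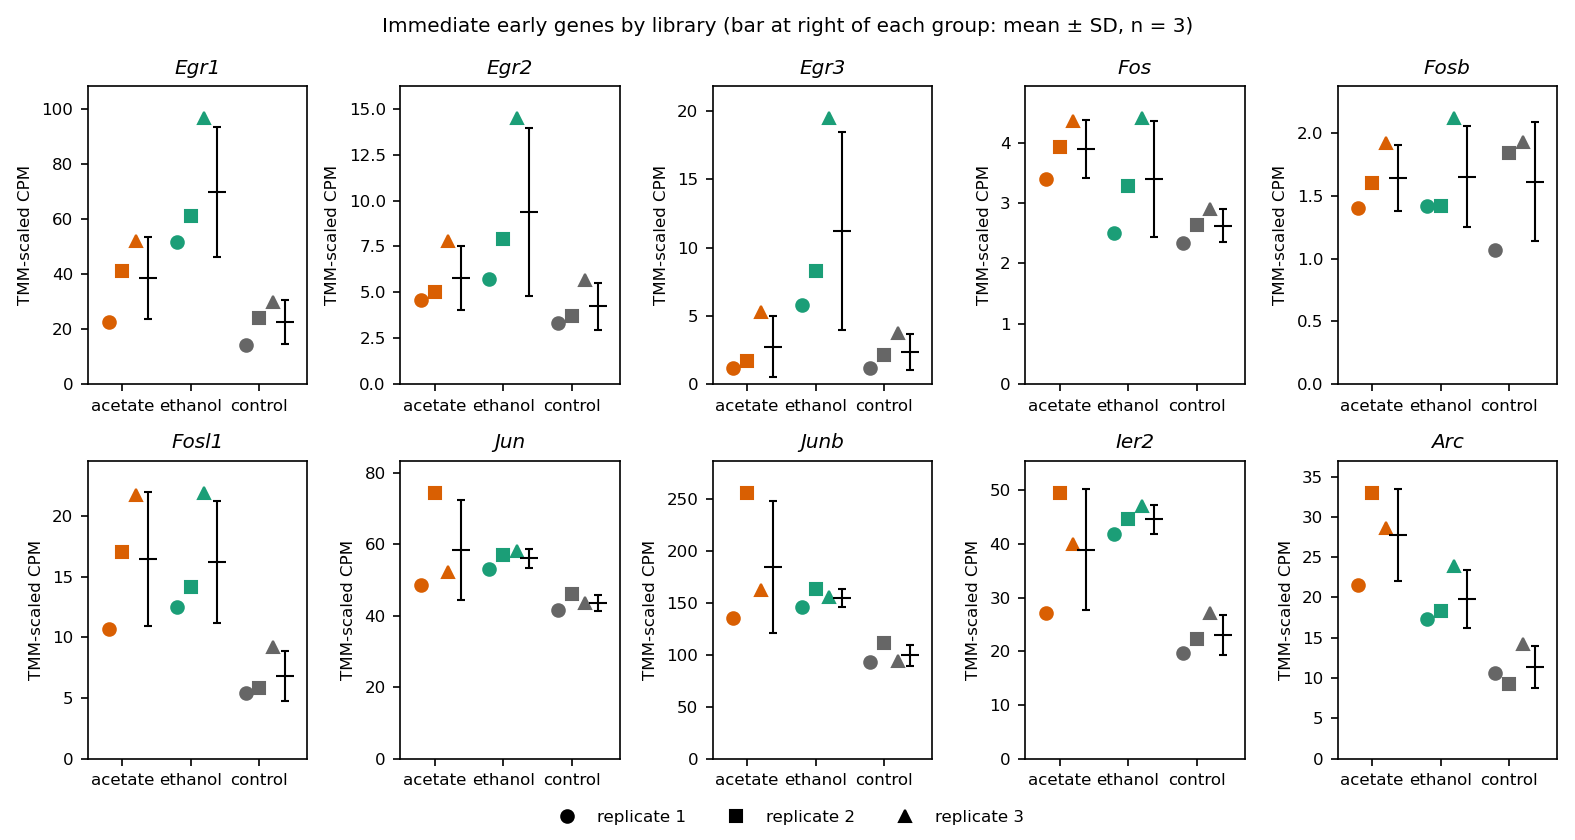
TMM-scaled CPM of the 10 immediate early genes (y axis, from 0, 1 scale per gene) in the acetate, ethanol and control libraries; symbols mark the replicate number, and the bar beside each group is its mean ± SD, n = 3. Ethanol replicate 3 is the highest library for Egr1, Egr2, Egr3, Fos, Fosb and Fosl1, and acetate replicate 2 for Jun, Junb, Ier2 and Arc.

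Per kilobase of transcript, which allows genes to be compared, Junb was the most abundant of the 10 and Fosb the least. Junb averaged 102 ± 35.0 CPM per kb in acetate, 85.8 ± 4.92 in ethanol and 54.9 ± 5.49 in control libraries (SD, n = 3 each). Fosb averaged 0.434 ± 0.0702 CPM per kb in acetate, 0.437 ± 0.107 in ethanol and 0.427 ± 0.125 in control libraries. Over all 9 libraries the order by CPM per kb was Junb (80.8), Ier2 (23.3), Jun (16.5), Egr1 (9.75), Fosl1 (7.07), Arc (6.43), Egr2 (2.18), Fos (1.57), Egr3 (1.38) and Fosb (0.433). Several neighbours lie within each other's spread: in control libraries Ier2 with 15.1 ± 2.47 and Jun with 13.7 ± 0.712 CPM per kb, and Arc with 3.73 ± 0.832 and Fosl1 with 3.66 ± 1.10. The gene that is best known as the marker of the group, Fos, had 1.25 ± 0.133 CPM per kb in control libraries and was 1 of the 3 least abundant of the 10.

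The EGR genes, which encode zinc finger factors that bind GC-rich sites, were highest in the ethanol libraries. Egr1 (chromosome 18) had 22.6, 41.1 and 52.1 CPM in acetate, 51.7, 61.0 and 96.7 CPM in ethanol and 14.1, 24.1 and 29.9 CPM in control libraries. All ethanol libraries were above all control libraries, whereas the acetate libraries overlapped both other groups. Egr1 rose with ethanol, 3.01-fold on the scale of CPM plus 1 (95% interval 1.71 to 5.28), a log2 fold change of 1.59 ± 0.36 (SE) with a limma adjusted p of 0.045. With replicate number as a block, which compares same-numbered ethanol and control libraries, the adjusted p was 0.0022 (range over its alternatives 1.1e-04 to 0.19). The call was lost when any single ethanol or control library was left out, with adjusted p of 0.072 to 0.19. Acetate against control gave 0.72 ± 0.36 for Egr1 with an adjusted p of 0.38, or of 0.045 with the replicate block (range over its alternatives 0.017 to 0.67).

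Egr3 (chromosome 14, 70077203 to 70082614), an EGR factor known from muscle spindle and lymphocyte development, had 1.17, 1.72 and 5.31 CPM in acetate, 5.82, 8.32 and 19.5 CPM in ethanol and 1.15, 2.16 and 3.76 CPM in control libraries. Every ethanol library was above every library of both other groups. The CPM means, 2.73 ± 2.25 in acetate, 11.2 ± 7.30 in ethanol and 2.36 ± 1.31 in control libraries (SD, n = 3 each), gave the largest ethanol to control ratio of the 10, 4.76. The log2 fold change of ethanol against control was 1.78 ± 0.49 with an adjusted p of 0.086, or of 0.024 without acetate replicate 2. With the replicate block the adjusted p was 0.0021 (range over its alternatives 1.9e-04 to 0.33), and ethanol exceeded control by a similar ratio in each same-numbered pair, 5.04, 3.86 and 5.19. Acetate against control gave 0.067 ± 0.49 with a 95% interval of -1.05 to 1.18 and an adjusted p of 0.95, and the sign turned to -0.39 without acetate replicate 3 and to -0.22 without control replicate 1.

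Egr2 (chromosome 10, 67535475 to 67542188), known for its role in myelination and hindbrain patterning, had 4.57, 5.03 and 7.80 CPM in acetate, 5.70, 7.91 and 14.5 CPM in ethanol and 3.33, 3.69 and 5.69 CPM in control libraries. The lowest ethanol library lay just above the highest control library, and acetate overlapped both. Ethanol against control gave 0.92 ± 0.31 with an adjusted p of 0.15, or of 0.048 without acetate replicate 2. With the replicate block the adjusted p was 0.011 (range over its alternatives 9.4e-04 to 0.46). Acetate against control gave 0.38 ± 0.31 with an adjusted p of 0.52.

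Among the FOS genes, Fosl1 differed most from control, and Fosb hardly at all. Fosl1 (chromosome 19, 5447547 to 5455946), which encodes FRA1, an AP-1 partner that acts in bone matrix formation, had 10.7, 17.0 and 21.7 CPM in acetate, 12.5, 14.1 and 21.9 CPM in ethanol and 5.43, 5.85 and 9.19 CPM in control libraries. Neither treated group overlapped control, and the treated groups lay over each other. The log2 fold changes against control were 1.14 ± 0.29 for acetate with an adjusted p of 0.11 and 1.13 ± 0.29 for ethanol with an adjusted p of 0.065. The ethanol value passed with the replicate block, with an adjusted p of 0.0042 (range over its alternatives 8.7e-05 to 0.26), and without acetate replicate 2, with 0.018. The acetate value also passed with the block, and had an adjusted p of 0.086 without acetate replicate 2. Fosl1 overlaps Ccdc85b on the opposite strand, which had a mean of 51.2 CPM. The library kit keeps strand, but the strand setting of the counting is not given in the sources used here, so reads of such pairs may be shared.

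Fos (chromosome 12, 85473890 to 85477273), which encodes the founding partner of JUN in AP-1, had 3.40, 3.93 and 4.36 CPM in acetate, 2.50, 3.29 and 4.41 CPM in ethanol and 2.34, 2.64 and 2.90 CPM in control libraries. Every acetate library was above every control library, and ethanol overlapped both. The log2 fold changes against control were 0.43 ± 0.17 for acetate with an adjusted p of 0.27 and 0.26 ± 0.17 for ethanol with an adjusted p of 0.45. Fosb (chromosome 7, 19302696 to 19310051), whose stable variant is known from lasting neuronal activity and from bone, had 1.40, 1.60 and 1.92 CPM in acetate, 1.42, 1.42 and 2.12 CPM in ethanol and 1.07, 1.84 and 1.93 CPM in control libraries. All 3 groups overlapped. Its log2 fold changes against control were 0.026 ± 0.17 for acetate, with a 95% interval of -0.36 to 0.41, and 0.027 ± 0.17 for ethanol, with an interval of -0.36 to 0.41, with adjusted p of 0.94 for acetate and 0.96 for ethanol.

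The JUN genes were above control in both treatments, Junb by more than Jun. Junb (chromosome 8, 84974484 to 84978718), an AP-1 subunit needed for bone cell and chondrocyte proliferation, had 135, 256 and 162 CPM in acetate, 146, 163 and 156 CPM in ethanol and 93.4, 111 and 93.9 CPM in control libraries. Neither treated group overlapped control, and acetate replicate 2 was far above the rest. Acetate against control gave 0.83 ± 0.21 with an adjusted p of 0.10. Without acetate replicate 2 it gave 0.57 ± 0.11 and passed, with an adjusted p of 0.021 (range over its alternatives 0.0013 to 0.39). Ethanol against control gave 0.64 ± 0.21 with an adjusted p of 0.14, of 0.054 with the replicate block and of 0.0020 without acetate replicate 2, which enters that comparison only through the variance shared by the groups (range over its alternatives 4.1e-04 to 0.42). Junb overlaps Prdx2, a peroxiredoxin gene on the opposite strand with a mean of 114 CPM, for which the log2 fold changes against control were 0.048 ± 0.21 for acetate and -0.042 ± 0.21 for ethanol.

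Jun (chromosome 4, 95049034 to 95052222), an AP-1 subunit that can also pair with itself, had 48.7, 74.4 and 52.1 CPM in acetate, 53.1, 57.0 and 58.2 CPM in ethanol and 41.5, 46.0 and 43.5 CPM in control libraries. Neither treated group overlapped control, but the gap was small, with 48.7 CPM in the lowest acetate library and 46.0 CPM in the highest control library. The log2 fold changes against control were 0.39 ± 0.16 for acetate with an adjusted p of 0.29 and 0.35 ± 0.16 for ethanol with an adjusted p of 0.26. Without acetate replicate 2 they were 0.20 ± 0.084 for acetate with an adjusted p of 0.24 and 0.35 ± 0.075 for ethanol with an adjusted p of 0.0099 (ranges over the alternatives 0.035 to 0.67 for acetate and 0.0031 to 0.62 for ethanol). The annotated antisense gene Junos overlaps Jun and has no value here.

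Ier2 (chromosome 8, 84661331 to 84662852), which encodes a nuclear regulator of transcription, had 27.2, 49.6 and 40.1 CPM in acetate, 41.9, 44.7 and 47.2 CPM in ethanol and 19.7, 22.3 and 27.1 CPM in control libraries. The ethanol libraries were close together and well above control, whereas the lowest acetate library lay next to the highest control library. Ier2 rose with ethanol, 1.91-fold on the scale of CPM plus 1 (95% interval 1.39 to 2.63), a log2 fold change of 0.93 ± 0.21 with an adjusted p of 0.040, or of 0.020 with the replicate block (range over its alternatives 1.0e-04 to 0.19). The call was lost without any single ethanol or control library, with adjusted p of 0.070 to 0.19, and without acetate replicate 3, with 0.051. Acetate against control gave 0.70 ± 0.21 with an adjusted p of 0.16, and 0.51 without acetate replicate 2, with an adjusted p of 0.13.

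Arc (chromosome 15, 74669083 to 74672570) was the gene of the 10 that rose with acetate. It had 21.6, 33.0 and 28.6 CPM in acetate, 17.3, 18.3 and 23.9 CPM in ethanol and 10.7, 9.25 and 14.2 CPM in control libraries. Both treated groups were above all control libraries, and 1 ethanol library reached into the acetate range. With acetate Arc rose 2.32-fold on the scale of CPM plus 1 (95% interval 1.69 to 3.18), a log2 fold change of 1.21 ± 0.20 with an adjusted p of 0.031. Without acetate replicate 2 the value was 1.08 ± 0.19 with an adjusted p of 0.016 (range over its alternatives 1.9e-04 to 0.17). The call was lost without acetate replicate 3, with an adjusted p of 0.093, and without any single ethanol or control library, with values from just over the threshold to 0.17. Ethanol against control gave 0.76 ± 0.20 with an adjusted p of 0.075 and, with the replicate block, of 0.039 (range over its alternatives 2.1e-04 to 0.28). Without acetate replicate 2 the ethanol value had an adjusted p of 0.013.

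**Figure D2:**
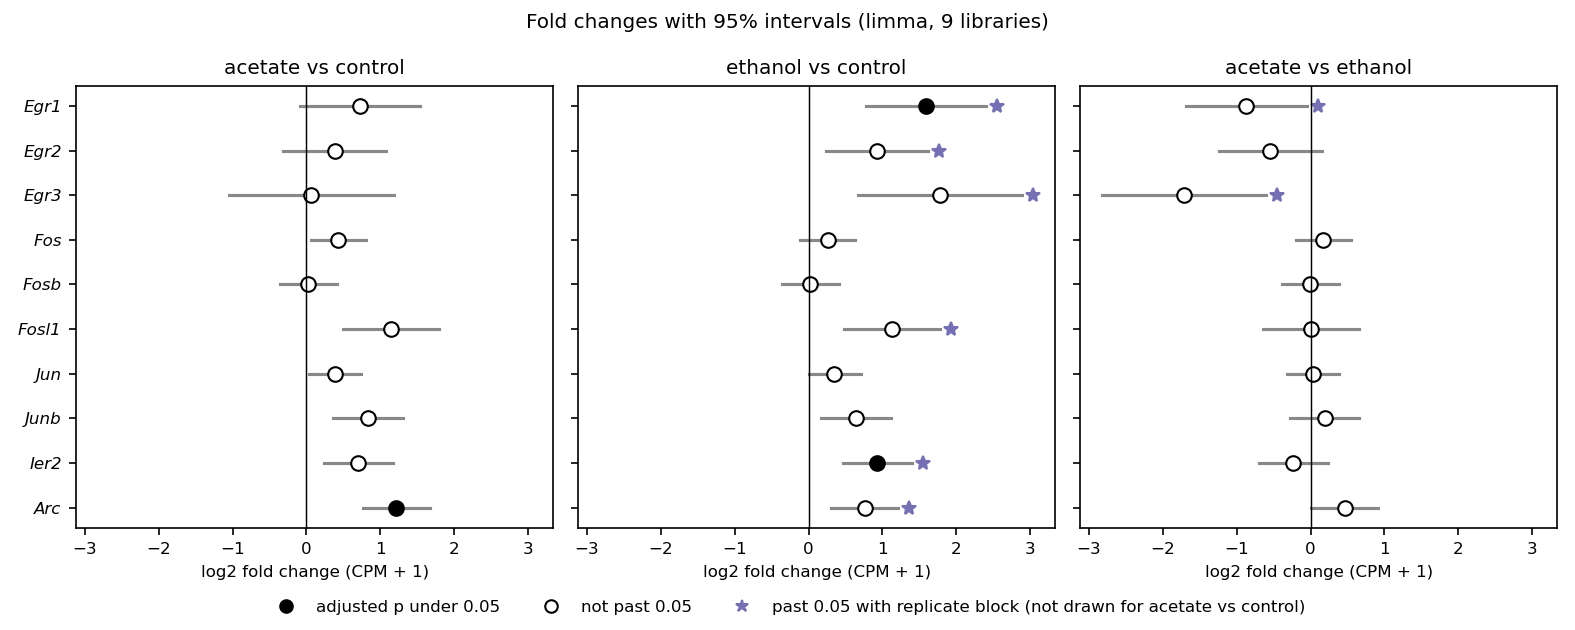
Log2 fold change of CPM plus 1 (x axis) for each gene (y axis), with a panel each for acetate and for ethanol against control and one for acetate against ethanol, with 95% limma intervals from all 9 libraries. Filled points have an adjusted p under 0.05 (Arc with acetate, Egr1 and Ier2 with ethanol), and stars mark an adjusted p under 0.05 with the replicate block. No stars are drawn for acetate against control, where Egr1, Fosl1, Junb and Arc passed with the block.

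Counted over the 10 genes, acetate against control had 1 higher and 0 lower past the threshold, where 0.505% of all tested genes were called higher. The median log2 fold change of the 10 was 0.57, beside -0.0097 over all tested genes, and all 10 estimates were above 0, those of Egr3 and Fosb by less than 0.1 and with signs that turned in some alternatives. At an unadjusted p under 0.05 there were 6, beside 14.6% of all tested genes in either direction. Without acetate replicate 2, Arc and Junb passed, where 1.95% of tested genes were called higher, and 0 passed with no filter or with only the 6 libraries compared. The median of the 10 was 0.48 without acetate replicate 2, beside 0.019 over all tested genes. With the replicate block 4 were higher, Egr1, Fosl1, Junb and Arc, beside 175 of the 12868 tested genes. Same-numbered acetate and control libraries correlated less evenly than those of ethanol and control, at 0.25, -0.1 and 0.41. No control library reached the lowest acetate library for 6 of the 10, Fos, Fosl1, Jun, Junb, Ier2 and Arc, and 11.4% of all tested genes showed this.

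Ethanol against control had 2 of the 10 higher, Egr1 and Ier2, and 0 lower, where 1.48% of all tested genes were called higher. The median log2 fold change of the 10 was 0.84, beside -8.4e-04 over all tested genes, and all 10 estimates were above 0. At an unadjusted p under 0.05 there were 8, beside 19.0% of all tested genes in either direction. In the fit with the replicate block 6 passed, Egr1, Egr2, Egr3, Fosl1, Ier2 and Arc, where 3.27% of tested genes were called higher. Without acetate replicate 2, 8 passed, all but Fos and Fosb, where 10.2% of tested genes were called higher, and 0 passed without any single ethanol or control library, with a filter of 5 CPM or none, or with quantile scaling. The ethanol libraries lay above all control libraries for 8 of the 10, again all but Fos and Fosb, as 20.1% of all tested genes did.

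Acetate against ethanol, the direct comparison, called 0 of the 10 with limma, where 3.73% of all tested genes were called in either direction, and 3 had an unadjusted p under 0.05, beside 21.1% of all tested genes. The median log2 fold change of the 10 was 0.0053, beside -0.0100 over all tested genes. Without acetate replicate 2 it was -0.11, beside 0.017 over all tested genes. With the GC trend removed it was -0.19, beside -0.0045. In the fit with the median of 0.0053, the 3 EGR genes had the lowest values, -1.71 ± 0.49 for Egr3 with an adjusted p of 0.097, -0.87 ± 0.36 for Egr1 with 0.22 and -0.55 ± 0.31 for Egr2 with 0.31. With the replicate block Egr3 fell, with an adjusted p of 0.0033 (range over its alternatives 3.0e-04 to 0.31), and so did Egr1, with 0.015 (7.9e-04 to 0.52). Egr2 had 0.058 with the block (0.0077 to 0.70), and 1.73% of tested genes were called lower in that fit. Egr3 was also the gene of the 10 whose acetate libraries all lay below the ethanol libraries, as for 12.5% of all tested genes. In same-numbered pairs the acetate to ethanol ratios of CPM were 0.201, 0.206 and 0.272 for Egr3, 0.437, 0.674 and 0.539 for Egr1, and 0.802, 0.636 and 0.539 for Egr2.

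The other 7 genes gave no call between the treatments with all 9 libraries and no block, or with the replicate block alone. With the block and the GC trend removed, Arc was called higher and Ier2 lower in acetate than in ethanol. That fit called 2220 of the 12868 tested genes higher and 2066 lower. For these 7 genes the block without acetate replicate 2 gave the same calls, beside 2454 tested genes higher and 1808 lower. Arc was higher in acetate in all 3 same-numbered pairs, by ratios of 1.25, 1.80 and 1.19. Its log2 fold change with all 9 libraries and no block was 0.46 ± 0.20 with an adjusted p of 0.24. Fosl1 gave 0.012 ± 0.29 with a 95% interval of -0.64 to 0.66, which leaves room for a difference in either direction. Jun gave 0.033 (interval -0.32 to 0.38), Junb 0.19 (-0.28 to 0.66), Ier2 -0.23 (-0.69 to 0.23), Fos 0.17 (-0.20 to 0.55) and Fosb -0.0012 (-0.38 to 0.38). The signs for Fosl1, Jun, Junb and Fosb turned when acetate replicate 2 was left out, with values of -0.035, -0.15, -0.069 and 0.0075.

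**Figure D3:**
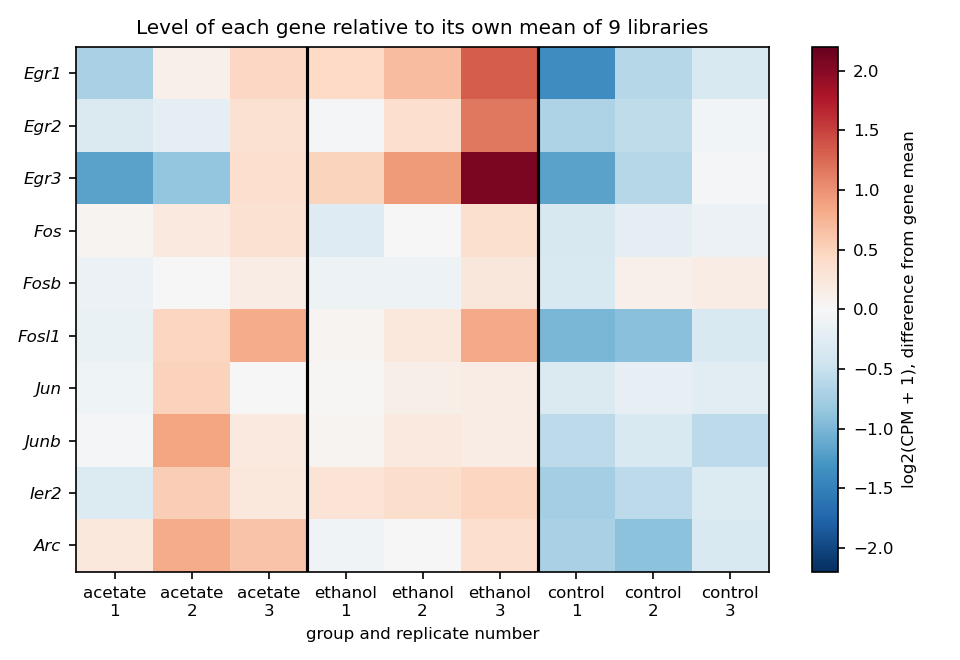
Log2 of CPM plus 1 of each gene minus its own mean over the 9 libraries (colour, red higher and blue lower), with libraries across by group and replicate number. In Egr1, Egr2, Egr3, Fos, Fosb and Fosl1 the library numbered 3 is the highest and the library numbered 1 the lowest in all 3 groups.

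The libraries of a group also differed among themselves in a way that carried the replicate number. For 6 of the 10 genes, the 3 EGR and the 3 FOS genes, library 3 was the highest and library 1 the lowest in the acetate, the ethanol and the control group alike. Of all tested genes, 1.59% (205) had this order, and 18.4% had library 3 highest in every group. Ethanol replicate 3 was the highest of the 9 libraries for all 6, with Egr3 at 19.5 CPM against 5.82 CPM in ethanol replicate 1. Jun, Junb, Ier2 and Arc did not share that order, and acetate replicate 2 was their highest library. Between same-numbered libraries, ethanol was above control in all 3 pairs for 9 of the 10, all but Fosb, as for 33.7% of tested genes. Egr1, Egr2 and Egr3 were lower in acetate than in ethanol in all 3 pairs, as were 22.7% of tested genes. What the shared number stands for (day, passage or plate) is not in the labels, and its part in these levels was not tested.

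**Figure D4:**
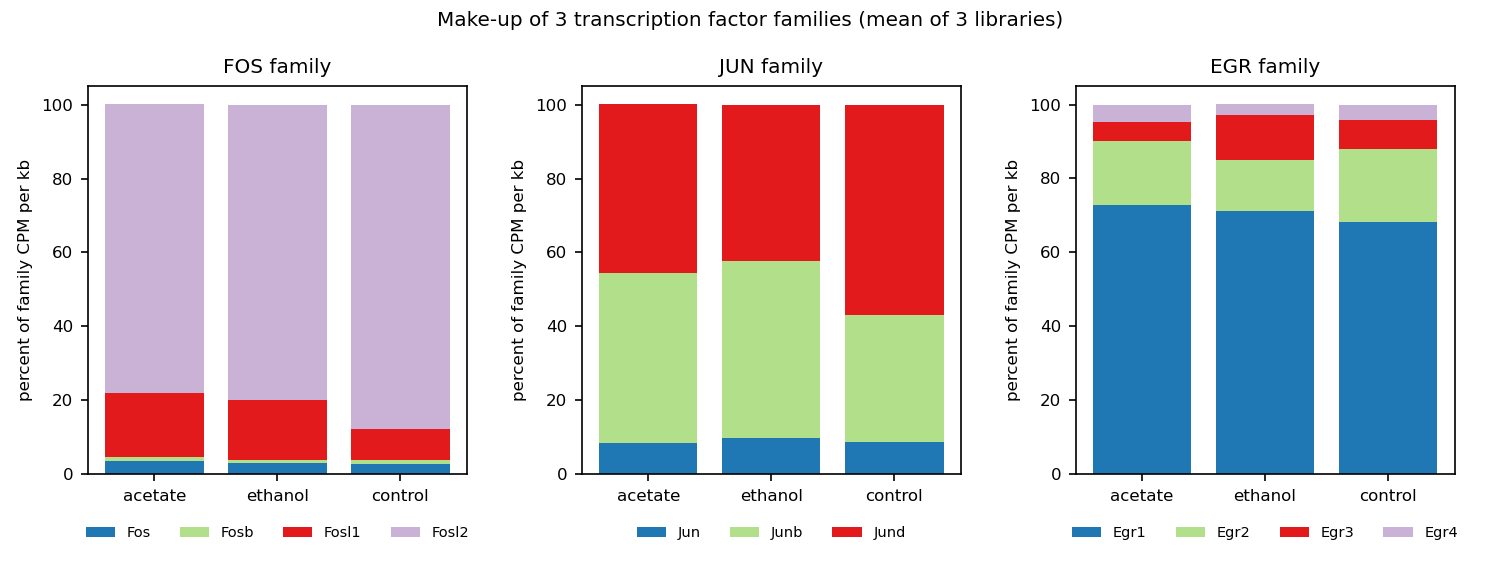
Share of each gene in its family's summed CPM per kb (y axis, percent, mean of 3 libraries) in acetate, ethanol and control libraries for the FOS, JUN and EGR families. Fosl2 holds most of the FOS family in every group, and Fosl1 and Junb hold larger shares in both treatments than in control.

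Set against their family members, the AP-1 genes showed which subunit messages dominated. Fosl2, which encodes FRA2 and is not among the 10, held 78.1% ± 4.49 of FOS family CPM per kb in acetate, 80.0% ± 4.10 in ethanol and 87.8% ± 1.73 in control libraries (SD, n = 3 each). Fosl1 held 17.4% ± 4.33 in acetate, 16.2% ± 3.44 in ethanol and 8.30% ± 1.56 in control libraries. Fos held 3.68% ± 0.181 in acetate, 3.01% ± 0.588 in ethanol and 2.87% ± 0.216 in control libraries. In the JUN family, Junb held 46.0% ± 2.23 in acetate, 47.8% ± 2.15 in ethanol and 34.5% ± 1.31 in control libraries, and Jund, the member least tied to stimulation, 45.6% ± 1.88 in acetate, 42.4% ± 2.76 in ethanol and 56.9% ± 1.44 in control libraries. The shares of Junb in both treated groups were above that of control by more than these SDs. Jun held 8.44% ± 0.570 in acetate, 9.81% ± 0.666 in ethanol and 8.62% ± 0.419 in control libraries. In the EGR family, Egr1 held 72.7% ± 2.68 in acetate, 71.2% ± 3.66 in ethanol and 68.3% ± 3.26 in control libraries. Egr3 held 5.36% ± 2.57 in acetate, 12.1% ± 3.07 in ethanol and 7.69% ± 1.80 in control libraries. The shares are descriptions, given with no test. Neither Fosl2, with log2 fold changes against control of 0.035 for acetate and 0.15 for ethanol, nor Jund, with 0.10 for acetate and -0.25 for ethanol, passed the threshold. The acetate signs of both turned without acetate replicate 2, to -0.014 for Fosl2 and to -0.13 for Jund.

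Among 11 other AP-1 and ATF factors, 9 were tested. Atf3, a stress-induced ATF factor, rose with ethanol by 0.59 ± 0.13 log2 units with an adjusted p of 0.038, and with acetate it gave 0.52 ± 0.13 with 0.097. No other gene of the list passed in either comparison with control, and at an unadjusted p under 0.05 there were 3 with acetate and 2 with ethanol, where the shares of all tested genes were 14.6% with acetate and 19.0% with ethanol. Atf3 also passed with acetate without acetate replicate 2 (0.41 ± 0.092, adjusted p 0.039, range over its alternatives 0.0046 to 0.37). Among 18 other immediate early transcription factors, all were tested, and Csrnp1, an AXIN1-induced nuclear factor, was higher with acetate (0.87 ± 0.16, adjusted p 0.044) and with ethanol (0.72 ± 0.16, adjusted p 0.042). Klf10, a TGF-beta-induced zinc finger factor, rose with ethanol by 0.64 ± 0.13 with an adjusted p of 0.033. None of the 18 was lower with all 9 libraries and no block. In that fit 0.505% of all tested genes were called higher with acetate and 1.48% with ethanol. At an unadjusted p under 0.05 there were 8 of the 18 with acetate and 8 with ethanol. The shares of all tested genes were 14.6% with acetate and 19.0% with ethanol. With the replicate block Hes1 was also higher and Nr4a3 lower with ethanol, where 3.27% of tested genes were called higher and 5.07% lower. In the same fit Klf4 and Nr4a1 were higher in acetate than in ethanol, where 4.67% were called higher. Left without acetate replicate 2, the fit had 2 of the 18 higher with acetate, Csrnp1 and Klf10, where 1.95% of tested genes were called higher. In that fit 5 were higher with ethanol, Csrnp1, Hes1, Ier5, Klf6 and Klf10, and 2 lower, Klf2 and Nr4a3. Of all tested genes, 10.2% were then called higher with ethanol and 11.3% lower. Klf4 and Nr4a1 were again higher in acetate than in ethanol, where 8.61% were called in either direction. Myc gave 0.38 ± 0.12 with acetate and 0.047 ± 0.12 with ethanol, and Srf, the serum response factor itself, 0.41 ± 0.17 with acetate and 0.22 ± 0.17 with ethanol, and none of these passed. The calls of Atf3, Csrnp1 and Klf10 with ethanol were lost without any single ethanol or control library, with adjusted p of 0.069 to 0.20, and that of Csrnp1 also without acetate replicate 3 (0.052). The acetate call of Csrnp1 was lost without acetate replicate 3 (0.10) and without any single ethanol or control library (0.091 to 0.22).

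Of 18 immediate early effectors, genes whose products act outside the transcription machinery, 3 rose with ethanol and 0 with acetate, and none fell against control with limma. Of all tested genes, 1.48% were called higher with ethanol and 0.505% with acetate in that fit. At an unadjusted p under 0.05 there were 8 with acetate and 9 with ethanol, beside 14.6% of all tested genes with acetate and 19.0% with ethanol. When acetate replicate 2 was left out, 2 were higher with acetate, Plk2 and Plk3. With ethanol 6 were then higher, Errfi1, Hbegf, Mcl1, Plk2, Sgk1 and Zfp36, and 4 lower, Ccn1, Ccn2, Ier3 and Ptgs2, and between the treatments Plk3 joined Ccn1 as higher in acetate. Without that library, 1.95% of all tested genes were called higher with acetate, and 10.2% higher and 11.3% lower with ethanol. Between the treatments 8.61% were then called in either direction. Plk2, a polo-like kinase, rose by 1.02 ± 0.13 with an adjusted p of 0.0047 and passed with each library left out in turn (3.1e-04 to 0.037). Sgk1, a serum- and glucocorticoid-induced kinase, rose by 0.61 ± 0.11 with 0.022, and Hbegf, an EGF receptor ligand, by 0.93 ± 0.18 with 0.027. Sgk1 lost its call without ethanol replicate 2 or 3 or any single control library (0.062 to 0.14), and Hbegf without any single ethanol or control library (0.061 to 0.13). Directly between the treatments, Ccn1, a matrix-associated signalling protein, was higher in acetate than in ethanol (0.80 ± 0.18, adjusted p 0.043), and Sgk1 (-0.60 ± 0.11, 0.020) and Trib1, a pseudokinase (-0.79 ± 0.18, 0.044), were lower. Of all tested genes, 3.73% were called in either direction. The replicate block gave 4 effectors that rose and 2 that fell with ethanol, Errfi1 rising and Ccn2 and Ier3 falling beside the 3 above, and 3 were higher and 4 lower in acetate than in ethanol. Of all tested genes, the block called 3.27% higher and 5.07% lower with ethanol. It called 4.67% higher and 1.73% lower in acetate than in ethanol. Between the treatments, Ccn1 lost its call without acetate replicate 1 or any single ethanol or control library (0.067 to 0.18), Trib1 without any single library but acetate replicate 2 (0.054 to 0.14) and Sgk1 without ethanol replicate 2 or 3 or control replicate 1 (0.053 to 0.12). Dusp1, a MAP kinase phosphatase, gave -0.010 ± 0.14 with acetate, a sign that turned in 4 alternatives, and -0.28 ± 0.14 with ethanol, and did not pass.

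The MAP kinase feedback genes and EGR corepressors, 13 listed and 12 tested, had 2 members higher with ethanol and 0 with acetate (limma), and 5 at an unadjusted p under 0.05 in each. Of all tested genes, 1.48% were called higher with ethanol and 0.505% with acetate. An unadjusted p under 0.05 was found for 14.6% with acetate and 19.0% with ethanol. Etv4, an ETS factor downstream of FGF signalling, rose by 1.30 ± 0.25 with an adjusted p of 0.025, and Dusp5, a nuclear ERK phosphatase, by 0.82 ± 0.19 with 0.0495. Ethanol against control had 6 of the 12 past the threshold with the replicate block, Dusp5, Dusp6, Etv4, Etv5, Spry1 and Spry2, where 3.27% of tested genes were called higher. Leaving out acetate replicate 2 gave 5, Dusp5, Dusp6, Etv4, Nab1 and Spry2, where 10.2% of tested genes were called higher. Dusp6, the cytoplasmic ERK phosphatase, gave 1.40 ± 0.38 with ethanol, with an adjusted p of 0.081 and, with the block, of 0.0020, and 0.24 ± 0.38 with acetate. Between the treatments Dusp6 gave -1.17 ± 0.38 with an adjusted p of 0.14 and fell with the block, with 0.0039. With all 9 libraries the corepressors of EGR proteins did not pass. Nab1 gave -0.21 ± 0.26 with acetate, which turned to 0.14 without acetate replicate 2, and 0.31 ± 0.26 with ethanol, for which the adjusted p was 0.57, or 0.039 without acetate replicate 2 (range over its alternatives 0.029 to 0.89). Nab2 gave 0.25 ± 0.16 with acetate and -0.0090 ± 0.16 with ethanol, which turned to 0.089 without TMM scaling. Etv4 lost its ethanol call without ethanol replicate 2 or 3 or control replicate 1 or 2 (0.10 to 0.13), and Dusp5 without acetate replicate 3 or any single ethanol or control library (0.063 to 0.22).

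**Figure D5:**
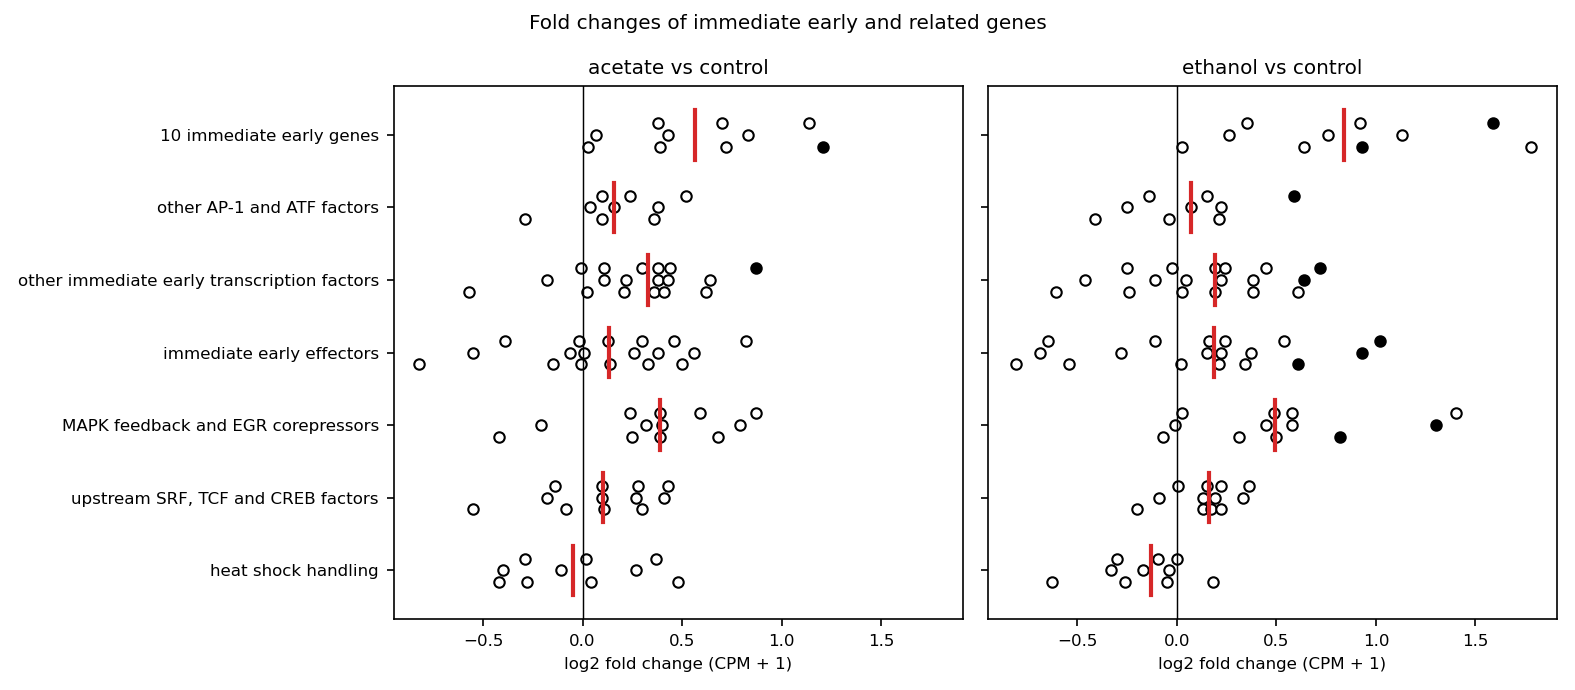
Log2 fold change of CPM plus 1 (x axis) of each tested gene in 7 gene lists (y axis) for acetate against control and ethanol against control; filled points have an adjusted p under 0.05 and the red bar is the list median. The median of the 10 immediate early genes is 0.57 with acetate and 0.84 with ethanol, and that of the heat shock list is -0.048 with acetate and -0.13 with ethanol. Without acetate replicate 2, a fit that is not drawn, these acetate medians were 0.48 and 0.035.

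Factors that act upstream of the immediate early genes, the SRF, ternary complex and CREB group, were all tested (12, of which Srf is also in a list above) and none passed in any of the 3 comparisons with limma, with 2 at an unadjusted p under 0.05 in each. Such a p was found for 14.6% of all tested genes with acetate, 19.0% with ethanol and 21.1% between the treatments. Crtc2 and Crtc3, coactivators of CREB, were higher with ethanol without acetate replicate 2, where 10.2% of tested genes were called higher. The medians of the 12 were 0.10 for acetate and 0.16 for ethanol against control. Heat shock genes, which respond to protein damage and rough handling of cells, were also all tested (10) with none past the threshold, and at an unadjusted p under 0.05 there were 0 for acetate and 1 for ethanol against control and 3 between the treatments. Their medians were -0.048 for acetate and -0.13 for ethanol against control. The acetate median turned to 0.035 without acetate replicate 2. With the replicate block Hspa1b and Hspb1 were higher in acetate than in ethanol, where 4.67% of tested genes were called higher. Hspb1 and Hspe1 were lower with ethanol without acetate replicate 2, and Hspb1 was higher in acetate than in ethanol. In that fit 11.3% of tested genes were called lower with ethanol, and 8.61% in either direction between the treatments. For acetate against control the list medians were 0.16 for the other AP-1 and ATF factors, 0.33 for the other immediate early transcription factors, 0.13 for the effectors and 0.39 for the feedback genes. Without acetate replicate 2 they were 0.12, 0.22, 0.19 and 0.39 for the same lists. For ethanol against control they were 0.070, 0.19, 0.19 and 0.50 for the same lists.

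Genes that followed Egr1 most closely over the 9 libraries, by Pearson r of log2 of CPM plus 1, were Hoxb3 (0.98), Aff1 (0.97), Syn1 (0.97), Aatf (0.96) and Nhlrc2 (0.96). For Arc they were Ezr (1.00), Synj2 (0.99), Foxs1 (0.98), Tsc1 (0.98) and Sh3rf3 (0.98). The lists have no gene in common. The values are a description over 9 libraries that share groups, replicate numbers and the GC pattern of acetate replicate 2, and genes with at least 5 CPM were searched.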

How the data were processed

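The authors deposited log2 values of TMM-normalised counts for 26202 genes in 9 ATDC5 libraries, and the log2 unit was read from the file and its values. Submitters' processing notes name Partek, Bowtie2 2.2.5, STAR 2.7.8a and mm10, with no role or order. The counting step and its strand setting are not given in the sources used here. The labels' treatment protocol is about other material and was left out.

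From the deposited log2 values, the floor of each library, equal to an offset of 1e-05 read, was subtracted to give TMM-scaled CPM and recovered reads. Of the values from 1 to 20 reads, the share that was whole within 0.02 read was 85.6% to 87.2% by library, so no count model was used. The 12868 genes that averaged 1 CPM or more were fitted as log2 of CPM plus 1 in limma 3.58.1 (R 4.3.3), using 1 mean for each group over all 9 libraries, a mean-variance trend and Benjamini-Hochberg adjustment at 0.05. This scale understates changes of genes with low levels. The main fit was run on simulated data that had no replicate-number effect and no GC-shifted library. That test therefore says nothing of the fits with a block or with a library left out. Replicate numbers come from the labels. Deviations from group means correlated between same-numbered libraries at 0.55, 0.36 and 0.67 for ethanol and control and at 0.15, 0.25 and 0.61 for acetate and ethanol, so the replicate number was used as a block beside these 2 comparisons. Libraries with different numbers correlated at -0.6 to 0.25 for ethanol and control and at -0.48 to 0.18 for acetate and ethanol. Deviations from a group mean cancel within the group, so positive values in same-numbered pairs force lower ones in the other pairs. The contrast between same-numbered and other pairs is thus in part fixed in advance. The 0.18, of acetate 2 with ethanol 1, lay above the 0.15 of acetate 1 with ethanol 1. Which comparisons to block was thus decided from the data that were then tested. GENCODE M21 on GRCm38 gave positions, lengths and GC content of transcripts, and RefSeq the promoters. Python 3.11.15, pandas 2.3.3 and matplotlib 3.10.9 were used for tables and figures.

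The 10 genes and the 11 lists beside them were chosen with earlier results of these data known. Named genes are the 10, up to 4 per list and comparison with the smallest adjusted p past the threshold, Nab1, Nab2, Dusp1, Dusp6, Fosl2, Jund, Atf3, Myc and Srf in every case, and the 5 genes most like Egr1 and most like Arc. Genes named from lists for a call with the replicate block or without acetate replicate 2, and marker genes with values, were chosen after their values were seen. The 23 alternatives varied the pseudocount, filter, scaling, variance model, block, GC trend, libraries fitted and each library left out.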

Additional observations from a re-analysis of the deposited data

How the results depend on the processing

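With acetate against control, 1 of the 10 genes passed, against 0 with no filter or only the 6 libraries compared, 2 with the GC trend removed, and 4 with the replicate block (Egr1, Fosl1, Junb and Arc). In this comparison same-numbered libraries correlated at 0.25, -0.10 and 0.41, not all above 0.1, so the block is not given beside every gene. The block with the GC trend removed gave 7, and the block without acetate replicate 2 gave 8. That last fit gave each gene's own variance no weight, so it has no part in the ranges of adjusted p. Leaving out 1 library each gave 0 to 4. With ethanol, 2 passed, against 0 with a 5 CPM filter, no filter or quantile scaling, 6 with the block, 9 with the block without acetate replicate 2, 7 with the GC trend removed, 8 with the block and GC trend removed and 8 in the 6 libraries compared. Leaving out 1 library each gave 0 to 8. Between the treatments 0 passed, against 2 with the block, 5 with the block without acetate replicate 2, 1 with the GC trend removed and 5 with the block and GC trend removed, and 0 to 1 with 1 library left out. The count also moved over all genes. It was 129 for acetate against control, with 52 at a 5 CPM filter, 293 with the block, 2773 with the block without acetate replicate 2, 770 with the GC trend removed, 2632 with the block and GC trend removed, 20 in the 6 libraries compared, and 0 to 448 with 1 library left out. It was 506 for ethanol against control, with 283, 1074, 6466, 2279, 5042 and 3443 under the same settings, and 98 to 2766 with 1 library left out. It was 480 between the treatments, with 307, 823, 4262, 1555, 4286 and 107, and 103 to 1108. The split into higher and lower genes for ethanol against control was 191 and 315, and 254 and 230 with no TMM scaling.

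Signs turned for genes with no call. For acetate against control, Egr3 ranged from -0.39 to 0.38 and Fosb from -0.13 to 0.12 with 1 library left out, and Fosb was -0.13 with the GC trend removed, with and without the block. Nab1 was 0.11 with the block without acetate replicate 2 and ranged from -0.43 to 0.14. Dusp1 was 0.050 with no TMM scaling and 0.033 with quantile scaling and ranged from -0.13 to 0.13, and Dusp6 ranged from -0.11 to 0.51. Fosl2 was -0.045 and Jund -0.078 with the block without acetate replicate 2, -0.065 and -0.12 with the GC trend removed, with and without the block, and they ranged from -0.016 to 0.11 and from -0.13 to 0.23. For ethanol against control, Fosb ranged from -0.13 to 0.12, and Nab2 was 0.089 with no TMM scaling, 0.014 with the GC trend removed, with and without the block, and ranged from -0.051 to 0.063. Between the treatments, Fosb was 0.0023 at a pseudocount of 0.1 and 0.011 with the block without acetate replicate 2, and ranged from -0.077 to 0.12. Fosl1 was -0.0038 with median-of-ratios scaling, -0.022 with no TMM scaling, -0.11 with the block without acetate replicate 2 and -0.20 with the GC trend removed, with and without the block, and ranged from -0.20 to 0.27. Jun was -0.0028 with no TMM scaling and -0.13 in those same block and GC fits, and ranged from -0.15 to 0.15, and Junb was -0.0100 with the block without acetate replicate 2 and -0.035 with the GC trend removed, with and without the block, and ranged from -0.069 to 0.39. Ier2 ranged from -0.42 to 0.0022. The causes were not tested. The 10 genes had at least 39 recovered reads in every library.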
